A study of Mus musculus with 12 samples.

Results

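Toll-like receptors are membrane proteins that sense molecules of microbes and of damaged cells. The 10 genes described here are 8 receptor genes (Tlr1, Tlr2, Tlr3, Tlr4, Tlr7, Tlr8, Tlr9 and Tlr13), the adaptor gene Myd88 and the co-receptor gene Cd14. They were chosen by name, as 10 of the 35944 mouse genes with a value, and their levels were summed over the transcripts of each gene in 12 RNA-Seq libraries. Each library came from 1 tumour of 4T1, a mouse mammary carcinoma line, implanted under the skin of female BALB/c mice aged 6 to 8 weeks when injected with 100000 cells. From day 5 the mice received, beside the tumour and at intervals of 2 days, 3 µg of extracellular vesicles (EVs) per injection, and RNA was taken on day 21. The EVs came from the mouse endothelial line MS-1 and were electroporated with a miRNA mimic, a synthetic copy of a small regulatory RNA. By the labels the 4 groups of 3 tumours differed in the mimic, which was the nematode miRNA cel-miR-67 in the control group (ctrl) and miR-222-3p, miR-183-5p or miR-142-5p in the others. All 12 tumours therefore received EVs, and no tumour without EVs was analysed here.

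The receptors fall into those of the cell surface and those of endosomes. At the surface, TLR1 pairs with TLR2 to bind bacterial lipoproteins, and TLR4 binds lipopolysaccharide with the help of CD14. In endosomes, TLR3 binds double-stranded RNA, TLR7 and TLR8 single-stranded RNA, TLR9 DNA with unmethylated CpG and TLR13 bacterial ribosomal RNA. All but TLR3 signal through MYD88, and macrophages, neutrophils and dendritic cells are known for their receptor repertoires. In RNA from whole tumours, fewer cells of a type and less RNA per cell cannot be told apart.

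The mature sequences of the loaded miRNAs are shown because the seed, bases 2 to 8, sets which target sites can pair with them. All 3 mouse miRNAs matched an entry of RefSeq (GRCm38.p6), which is printed with the seed in capitals, 5′ to 3′, and cel-miR-67 is named only. The miR-222-3p mimic listed by the paper is shorter than its entry at the 3′ end and has the same seed. The loci are chr11:87756867-87756887 on the plus strand for miR-142-5p, chr6:30169711-30169732 on the minus strand for miR-183-5p and chrX:19146901-19146923 on the minus strand for miR-222-3p.
miR-142-5p: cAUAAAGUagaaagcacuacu
miR-183-5p: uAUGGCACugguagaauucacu
miR-222-3p: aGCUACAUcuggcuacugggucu

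The 3 seeds are unlike each other, and their perfect matches were searched for on the sense strand of the annotated 3′ UTRs, as ACTTTAT for miR-142-5p, GTGCCAT for miR-183-5p and ATGTAGC for miR-222-3p. None of the 10 genes held the first, where 17.0% of 14619 genes with a 3′ UTR did. The second occurred in 1 of the 10, Tlr7, against 11.3% of genes, and the third in 1 of the 10, Tlr3, against 11.7%. The longest annotated 3′ UTR ranged from 58 bases in Tlr8 to 1496 bases in Tlr3. The matches are printed with 8 bases on either side, the seed match in capitals and the strand that of the mRNA. That of Tlr7 lies at chrX:167305147-167305153 on the minus strand (GRCm38), in the 3′ UTR of the 2 main Tlr7 transcripts, which held medians of 52.5% and 46.2% of the gene's reads. That of Tlr3 lies at chr8:45396467-45396473 on the minus strand, in the 3′ UTR of all 4 Tlr3 transcripts with an annotated one, and is followed by an A. A match of letters says nothing of whether a site is used.
Tlr7 with miR-183-5p: ttcttcatGTGCCATgctcagtt
Tlr3 with miR-222-3p: ttaagggcATGTAGCaccacacc

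The libraries held between 20285968 and 27021401 estimated reads, and keratin and epithelial markers of the carcinoma summed to between 1217 and 1788 TPM in each. TPM is a level per unit of transcript length, scaled to a fixed sum per library, so that it can be compared between genes. Macrophage markers summed to between 899 and 2122 TPM and neutrophil markers to between 882 and 3042 TPM. The dendritic cell lists were low, at up to 11.2 TPM for the conventional and 7.75 TPM for the plasmacytoid list, and no marker of any list was at 0 in all libraries. B cell markers summed to 419 TPM in miR-142-5p tumour 3 and to at most 2.79 TPM elsewhere, and skeletal muscle markers to 274 TPM in miR-183-5p tumour 3 and at most 14.4 TPM elsewhere. Libraries also fell into 2 sets by how reads were split between mt-Co2 and its pseudogene Gm28661, whose share was 7.13% to 41.8% in 8 libraries and at most 0.324% in the other 4. The smaller set was made up of all miR-222-3p tumours plus miR-183-5p tumour 3, so that the miR-222-3p group and the library set cannot be told apart.

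To see which receptors these tumours expressed, the members were first ordered with the remaining mouse receptors. Tlr3, the double-stranded RNA receptor, had the highest level, 30.5 ± 6.81 TPM (SD over 12 tumours), and was the highest receptor in 12 of 12 tumours. Tlr1 (18.2 ± 5.51 TPM), Tlr2 (18.1 ± 3.32 TPM) and Tlr4 (16.2 ± 3.90 TPM) followed. Tlr1 was above Tlr2 in 6 of 12 tumours, so this pair had no fixed order, and Tlr2 was above Tlr4 in 10 of 12.

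Tlr13 was next at 12.4 ± 3.40 TPM, above Tlr6 (9.52 TPM), which encodes the other partner of TLR2, in 10 of 12 tumours. Tlr8 (6.96 ± 2.23 TPM) was above Tlr12 (6.01 TPM) in 10 of 12, and Tlr12 above Tlr7 (5.17 ± 1.33 TPM) in 7 of 12. Tlr12 and Tlr11 encode mouse receptors for a profilin of protozoa. Tlr9 was the lowest member, at 2.60 ± 1.10 TPM, below Tlr7 in 12 of 12 tumours and above Tlr5, the flagellin receptor gene (2.41 TPM), in 6 of 12. Tlr11 was listed at 0.327 TPM, from between 1 and 36 reads per library.

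**Figure D1:**
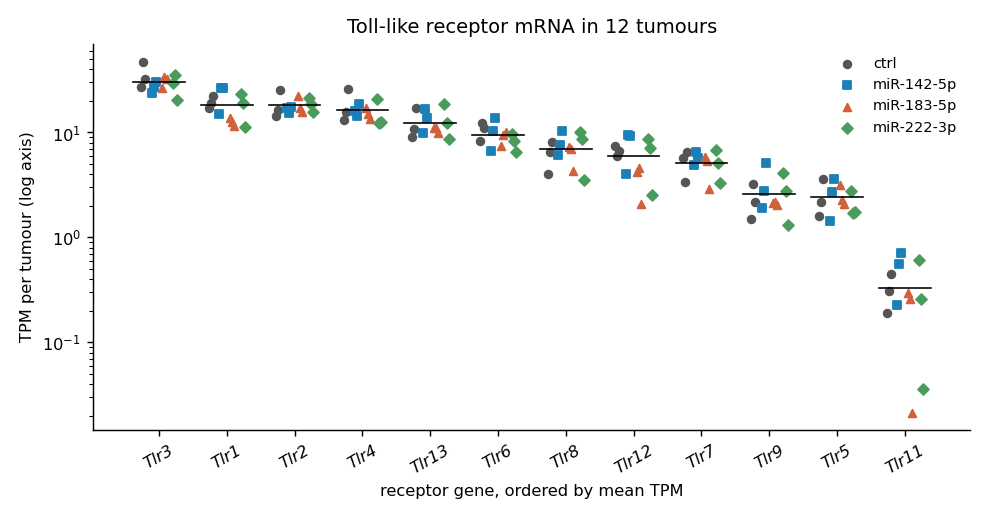
Levels of the 12 mouse Toll-like receptor genes in TPM on a log axis, ordered by mean (horizontal line), with 1 point per tumour coloured by group. Tlr3 lay at the top with a mean of 30.5 TPM and Tlr11 at the bottom with 0.327 TPM, and the points of the 4 groups intermixed for most genes.

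The summed level of the 12 receptor genes ranged from 87.7 TPM in miR-222-3p tumour 3 to 161 TPM in ctrl tumour 3. Within this sum Tlr3 made up between 18.9% and 33.1% and Tlr1 between 10.4% and 18.8%. The lowest 3 shares of Tlr1 were those of the miR-183-5p tumours, at 11.4%, 10.4% and 10.8%.

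The adaptor and the co-receptor were expressed above any receptor. Myd88 stood at 45.1 ± 3.24 TPM and Cd14 at 83.4 ± 18.8 TPM, which placed them at percentiles 76.3 and 87.5 of the 15485 genes tested. Tlr3 lay at percentile 66.6 and Tlr9 at 23.3. Myd88 was the steadiest member, with a coefficient of variation of 7.18% between tumours, where the median gene had 17.1%. Tlr9 varied most at 42.4%, followed by Tlr8 (32.0%) and Tlr1 (30.3%).

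The reads behind these levels limit some members. Tlr9 rested on 76 to 284 reads per library, and 76 reads carry an exact 95% Poisson interval of 59.9 to 95.1, which covers counting error only. Tlr7 had 145 to 357 reads and Tlr8 163 to 440, and the other members had at least 402.

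To ask whether the receptors differed with the loaded mimic, each miRNA group was compared to ctrl in a DESeq2 fit of all 12 tumours. All 10 genes passed the filter of at least 10 reads in at least 3 libraries. No member passed an adjusted p-value of 0.05 in any of the 3 comparisons, which share the ctrl tumours. Of all genes, 0.00648% passed in the miR-142-5p group, 0% in the miR-183-5p group and 0.0259% in the miR-222-3p group. At an unadjusted p-value under 0.05 the counts of members were 0, 1 and 0 of 10, beside 3.58%, 3.21% and 2.31% of all genes. By the edgeR quasi-likelihood test 0 members passed as well. The 95% intervals of the log2 fold changes give the size of change that these tumours leave possible, and they are given with each gene. Where nothing says that tumours of a group came from separate cages or days, the p-values measure the spread between these tumours.

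**Figure D2:**
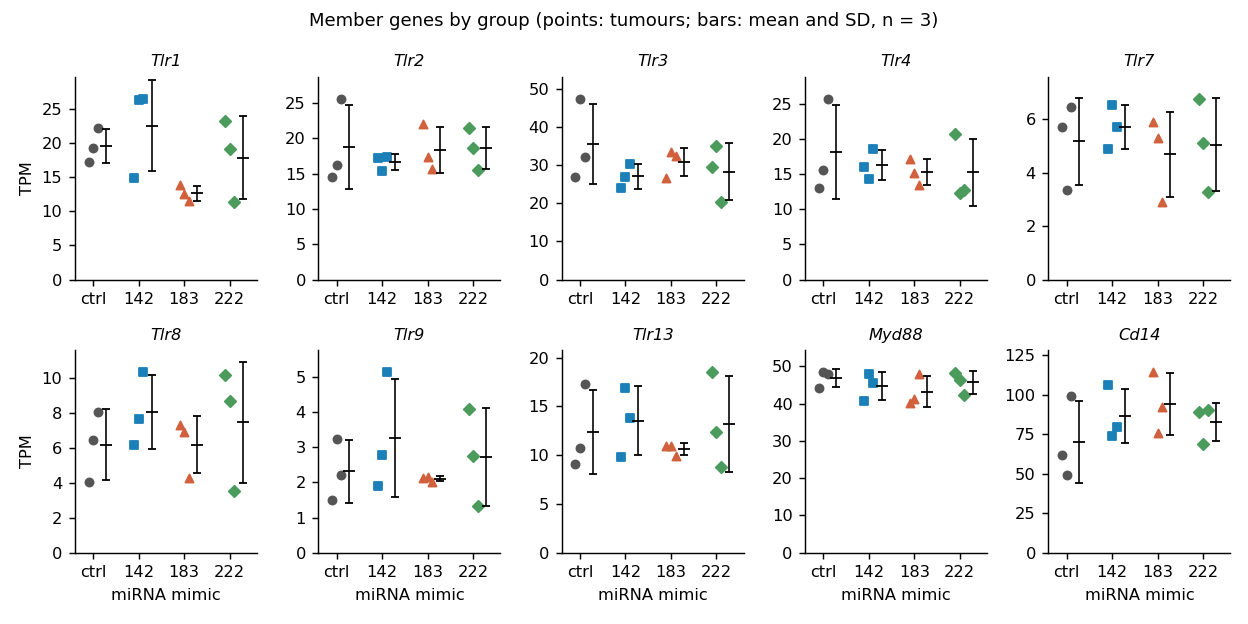
Gene levels in TPM for the 10 members in tumours treated with ctrl-EVs or with EVs carrying miR-222-3p, miR-183-5p or miR-142-5p, with 1 point per tumour and mean and SD (n = 3) beside. The miR-183-5p points of Tlr1, at 11.5 to 13.9 TPM, lie under all ctrl points, and the groups of the other genes overlap with ctrl.

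Among the surface receptors, Tlr1 had the largest difference. Tlr1 stood at 17.3, 19.3 and 22.2 TPM in the ctrl tumours and at 13.9, 12.5 and 11.5 TPM in the miR-183-5p tumours. Every miR-183-5p tumour was thus below every ctrl tumour, and Tlr1 was the only member without overlap to ctrl in any group. Over all genes, 4.73% were lower in miR-183-5p without overlap, and in the miR-142-5p and miR-222-3p groups 5.13% and 5.5% differed from ctrl without overlap in either direction. The means were 12.6 ± 1.16 TPM against 19.6 ± 2.49 TPM (SD, n = 3).

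The log2 fold change of Tlr1 in miR-183-5p against ctrl was -0.60 (95% interval -1.07 to -0.14), 1.52-fold lower. The unadjusted DESeq2 p-value was 0.0103 and the Benjamini-Hochberg adjusted p-value 1.0, so the difference did not pass. Across the other settings of DESeq2, edgeR and limma the log2 fold change ranged from -0.66 to -0.50 and the adjusted p-value from 0.0512 to 1.0.

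In the other treated groups Tlr1 was spread more widely. It stood at 14.8, 26.3 and 26.5 TPM in the miR-142-5p tumours and at 23.3, 19.1 and 11.3 TPM in the miR-222-3p tumours. Both groups overlapped with ctrl, and the log2 fold changes were 0.21 (-0.25 to 0.67) and -0.15 (-0.61 to 0.31). miR-222-3p tumour 3 was as low as the miR-183-5p tumours.

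Tlr1 (chromosome 5, positions 64924679 to 64933563, minus strand, GRCm38) carries an uncertainty of its own. Its transcripts align to those of Tlr6 over 1076 bases at 94.9% identity, with an identical run of 229 bases, so that some reads of either gene could be assigned to the other. The sum of Tlr1 and Tlr6 stood at 21.4, 22.0 and 21.6 TPM in the miR-183-5p tumours and at 25.5, 31.7 and 33.2 TPM in ctrl, again without overlap. Tlr6 alone overlapped, at 7.50, 9.47 and 10.03 TPM against 8.27, 12.4 and 11.0 TPM. In addition, as for the short transcripts of Tlr7 and Tlr8, the transcript Tlr1-203 of 419 bases weighed on TPM. It held only 1.26% to 3.73% of the reads of Tlr1 but 13.0% to 31.2% of its TPM. The normalised read counts of Tlr1 were 482, 453 and 410 in the miR-183-5p tumours against 656, 659 and 732 in ctrl. Their length offset weighs this transcript as TPM does, so they are no separate check on it.

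Tlr2, the partner of TLR1, did not follow Tlr1. It stood at 14.5, 16.3 and 25.6 TPM in ctrl and at 22.1, 17.3 and 15.7 TPM in the miR-183-5p tumours, which overlapped. The log2 fold change was 0.00 (-0.37 to 0.38), and its sign changed with the processing. In the miR-142-5p tumours Tlr2 stood at 17.2, 15.4 and 17.4 TPM and in the miR-222-3p tumours at 21.5, 18.7 and 15.6 TPM. These 2 groups lay within the ctrl range, with log2 fold changes of -0.14 (-0.52 to 0.23) and -0.01 (-0.39 to 0.36).

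Tlr4, the lipopolysaccharide receptor gene, was highest in a ctrl tumour. It stood at 13.0, 15.5 and 25.7 TPM in ctrl, 15.98, 14.3 and 18.5 TPM in miR-142-5p, 17.2, 15.1 and 13.4 TPM in miR-183-5p and 20.7, 12.3 and 12.7 TPM in miR-222-3p tumours. All groups overlapped. The log2 fold changes against ctrl were -0.12 (-0.57 to 0.32), -0.21 (-0.65 to 0.24) and -0.25 (-0.69 to 0.20), and without ctrl tumour 3 each turned positive, with that of miR-183-5p at 0.08.

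Cd14 was higher on average in each treated group. It stood at 62.0, 49.4 and 99.0 TPM in ctrl, 106, 73.9 and 79.3 TPM in miR-142-5p, 114, 75.6 and 92.4 TPM in miR-183-5p and 89.3, 68.8 and 90.3 TPM in miR-222-3p tumours. The third ctrl tumour lay above all miR-222-3p tumours and within the range of the other treated groups, while the other 2 ctrl tumours were below every treated tumour. The log2 fold change was 0.45 (-0.04 to 0.94) for miR-183-5p, 0.34 (-0.15 to 0.83) for miR-142-5p and 0.25 (-0.24 to 0.73) for miR-222-3p. Without ctrl tumour 3 they were 0.72, 0.60 and 0.51, and without ctrl tumour 2 they were 0.25, 0.13 and 0.04.

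Among the endosomal receptors, Tlr3 was lower on average in each treated group. It stood at 27.03, 47.4 and 32.2 TPM in ctrl, 23.9, 27.04 and 30.4 TPM in miR-142-5p, 26.6, 33.5 and 32.5 TPM in miR-183-5p and 29.5, 35.1 and 20.4 TPM in miR-222-3p tumours. All groups overlapped, and ctrl tumour 2 had the highest level of all. Tlr3 in miR-222-3p, whose seed matches its 3′ UTR, had a log2 fold change of -0.33 (-0.75 to 0.09). It was -0.38 (-0.80 to 0.04) in miR-142-5p and -0.17 (-0.59 to 0.25) in miR-183-5p, neither of which has a seed match in Tlr3. Without ctrl tumour 2 the 3 values were -0.09, -0.13 and 0.07.

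Tlr7 and Tlr8, the single-stranded RNA receptor genes, lie near each other on chromosome X. Tlr7 stood at 5.72, 3.35 and 6.47 TPM in ctrl and at 5.90, 5.31 and 2.89 TPM in the miR-183-5p tumours, whose mimic has a seed match in its 3′ UTR. Tlr7 had a log2 fold change of -0.12 (-0.75 to 0.51) in miR-183-5p, and it was 0.13 without miR-183-5p tumour 3. It was 0.15 (-0.48 to 0.78) in miR-142-5p (4.91, 6.56 and 5.72 TPM) and -0.06 (-0.69 to 0.57) in miR-222-3p (6.78, 5.11 and 3.28 TPM).

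Tlr8 stood at 4.04, 6.45 and 8.06 TPM in ctrl, 6.14, 7.66 and 10.3 TPM in miR-142-5p, 7.31, 6.90 and 4.30 TPM in miR-183-5p and 10.2, 8.68 and 3.56 TPM in miR-222-3p tumours. Levels within a group thus differed more than the group means, and all groups overlapped. The log2 fold changes against ctrl were 0.40 (-0.26 to 1.05), 0.04 (-0.62 to 0.70) and 0.26 (-0.40 to 0.92).

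Tlr9 was highest in the tumour with B cell markers, miR-142-5p tumour 3, at 5.14 TPM. The other miR-142-5p tumours stood at 1.90 and 2.78 TPM, against 1.49, 3.25 and 2.20 TPM in ctrl. Tlr9 in miR-142-5p had a log2 fold change of 0.50 (-0.27 to 1.27), and 0.09 without this tumour. In the miR-183-5p tumours Tlr9 stood at 2.14, 2.16 and 2.03 TPM, the closest values of any group, with a log2 fold change of -0.10 (-0.87 to 0.68). In the miR-222-3p tumours it ranged from 1.33 to 4.09 TPM (log2 fold change 0.22, -0.56 to 0.99).

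Tlr13, the ribosomal RNA receptor gene, stood at 9.11, 10.8 and 17.3 TPM in ctrl, 9.83, 16.9 and 13.9 TPM in miR-142-5p, 10.9, 11.0 and 9.92 TPM in miR-183-5p and 18.5, 12.4 and 8.75 TPM in miR-222-3p tumours. The log2 fold changes were 0.15 (-0.36 to 0.66), -0.18 (-0.69 to 0.33) and 0.09 (-0.42 to 0.60). All groups overlapped.

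Myd88, the adaptor, gave the narrowest intervals. It stood at 44.1, 48.4 and 48.0 TPM in ctrl, 40.6, 47.9 and 45.4 TPM in miR-142-5p, 40.2, 41.3 and 48.0 TPM in miR-183-5p and 48.3, 46.4 and 42.2 TPM in miR-222-3p tumours. The log2 fold changes were -0.06 (-0.26 to 0.15), -0.09 (-0.30 to 0.11) and -0.04 (-0.25 to 0.16), which leaves out a change of more than 0.30 in either direction under this fit. The gene overlaps Acaa1a on the opposite strand. The library kit keeps strand, whereas how strand was used in the quantification is not given in the sources used here.

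**Figure D3:**
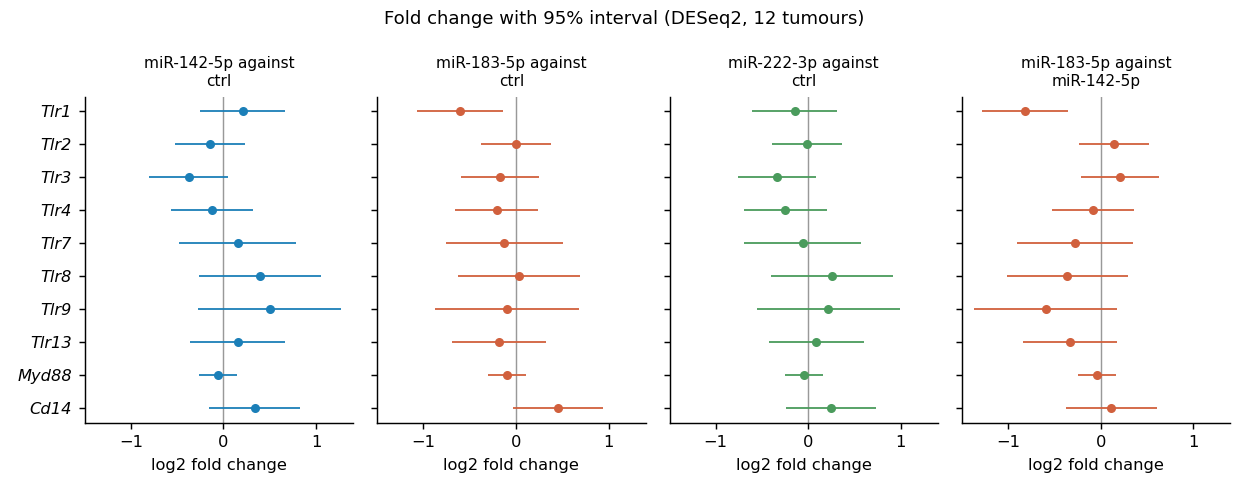
Log2 fold changes of the 10 members (points) with 95% intervals (lines) from the DESeq2 fit of 12 tumours, for the 3 comparisons to ctrl and for miR-183-5p versus miR-142-5p. The interval of Tlr1 excludes 0 in both panels for miR-183-5p, and no other member's interval does so in any panel.

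The miRNA groups were also compared with each other. No member passed the adjusted threshold in miR-183-5p versus miR-142-5p (0.0518% of all genes did), in miR-183-5p versus miR-222-3p (0.0324%) or in miR-142-5p versus miR-222-3p (0.0389%). At an unadjusted p-value under 0.05 there were 1, 0 and 0 members of 10, beside 7.94%, 3.25% and 3.62% of all genes. By the edgeR quasi-likelihood test 0 members passed in each.

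The member with the low p-value was again Tlr1. Every miR-183-5p tumour (11.5 to 13.9 TPM) was below every miR-142-5p tumour (14.8 to 26.5 TPM), as were 5.6% of all genes. The log2 fold change was -0.81 (95% interval -1.27 to -0.35), 1.76-fold lower, with an unadjusted DESeq2 p-value of 0.000548 and an adjusted p-value of 0.124. The adjusted p-value (DESeq2, edgeR or limma) was 0.0394 in a fit of these 2 groups alone and 0.00163 without miR-142-5p tumour 1, the lowest of its group, and ranged up to 0.848 in limma. Over all genes, 68 passed in the first of these fits and 416 in the second, against 8 in the fit of all 12 tumours. This comparison and that to ctrl share the miR-183-5p tumours. Against miR-222-3p the log2 fold change of Tlr1 was -0.46 (-0.92 to 0.00), and the groups overlapped.

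The other members differed less between miR-183-5p and miR-142-5p. The largest differences were those of Tlr9, at -0.59 (-1.36 to 0.18), which was -0.18 without miR-142-5p tumour 3, and of Tlr8, at -0.36 (-1.02 to 0.30). Over the 10 members 3 were higher and 7 lower, with a median log2 fold change of -0.18, and over all genes 49.6% were higher with a median of 0.00.

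Of the 4 receptor genes that are not members, Tlr12 had the largest difference for which counts sufficed. It stood at 4.19, 4.62 and 2.07 TPM in the miR-183-5p tumours against 7.48, 5.92 and 6.65 TPM in ctrl. The groups did not overlap, as for 4.73% of all genes in this direction. The log2 fold change was -0.87 (-1.67 to -0.07), with an unadjusted p-value of 0.0339 and an adjusted p-value of 1.0 by DESeq2. Against miR-142-5p (4.05, 9.52 and 9.29 TPM) it was -1.04 (-1.84 to -0.24) with an adjusted p-value of 0.410 by DESeq2, and those groups overlapped.

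Because macrophages and neutrophils are known for their receptor repertoires, the levels were set beside marker sums. Which cells carried the receptors in these tumours was not measured. Macrophage markers (Adgre1, Csf1r, C1qa, C1qb, Cd68 and Mrc1) summed to 1336, 1312 and 899 TPM in the miR-183-5p tumours. These sums lay below the 1358 to 1700 TPM of ctrl and the 1457 to 2122 TPM of miR-142-5p, without overlap. C1qa and C1qb, with means of 728 and 505 TPM over the 12 tumours, made up most of the sum. Single markers did overlap. In normalised counts miR-183-5p tumour 1 exceeded ctrl tumour 2 for Adgre1 (1010 against 974), Cd68 (1800 against 1389) and Mrc1 (2456 against 1581). It did not for Csf1r (4557 against 4830.5). Neutrophil markers (Csf3r, Cxcr2, Retnlg, S100a8, S100a9 and Ly6g) summed to 3042, 1879 and 2284 TPM in the miR-183-5p tumours. In ctrl they summed to 1051 to 2010 TPM and in miR-142-5p to 1019 to 1660 TPM. S100a8 and S100a9, with means of 519 and 1025 TPM over the 12 tumours, made up most of the sum. In normalised counts ctrl tumour 3 was above miR-183-5p tumour 1 for Csf3r (2159 against 1778) and Cxcr2 (616 against 556). It was below it for Retnlg (467 against 856) and Ly6g (24.1 against 34.7). The miR-222-3p tumours, at 1185 to 1805 TPM of macrophage and 882 to 2009 TPM of neutrophil markers, overlapped with miR-183-5p in both. The lower Tlr1 in miR-183-5p thus stood beside lower macrophage and mostly higher neutrophil marker sums, and the part of either in the result was not tested.

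Across the 12 tumours, the level of each member was related to both sums, 20 relations in all, with permutation tests and adjustment over the 20. Tlr1 rose with the macrophage sum with Pearson r = 0.75 (permutation p = 0.00406, adjusted p = 0.0406) and Spearman rho = 0.76 (permutation p = 0.00635, adjusted p = 0.0585). Tlr7 did so with r = 0.80 (permutation p = 0.000900, adjusted p = 0.018) and rho = 0.75 (permutation p = 0.00641, adjusted p = 0.0585). Cd14 rose with the neutrophil sum with r = 0.73 (permutation p = 0.00681, adjusted p = 0.0454) and rho = 0.73 (permutation p = 0.00878, adjusted p = 0.0585).

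These were the 3 of 20 relations that passed by Pearson's r, and no relation passed by rho. Without the 2 tumours farthest from the median sum, r was 0.60 for Tlr1, 0.71 for Tlr7 and 0.57 for Cd14, and 0 of 20 relations passed. The tumours left out were miR-183-5p 3 and miR-142-5p 2 for macrophages, and miR-183-5p 1 and miR-222-3p 2 for neutrophils, and the calls were lost without them, in fewer tumours. Within the 8 libraries of the larger set r was 0.59, 0.57 and 0.73, and 0 of 20 passed. The smaller set holds 4 tumours, too few for a value. Levels and sums come from the same libraries and share their scaling, and 2 genes made up most of each sum.

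**Figure D4:**
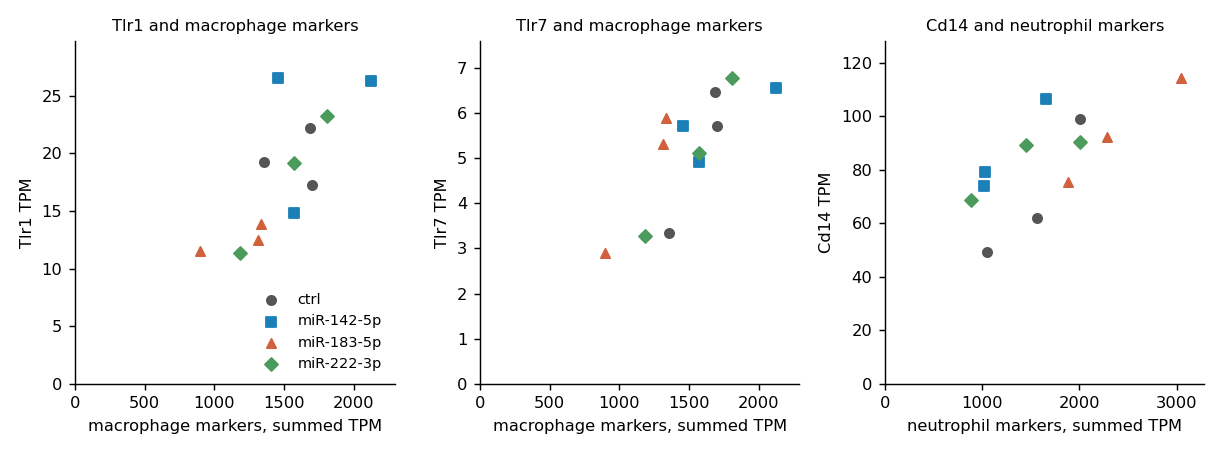
Levels of Tlr1 and Tlr7 against the summed TPM of 6 macrophage markers, and of Cd14 against that of 6 neutrophil markers, with 1 point per tumour. The miR-183-5p tumours lie at 899 to 1336 TPM on the macrophage axis and include the highest neutrophil sum of 3042 TPM, and the points rise from left to right (r = 0.75, 0.80 and 0.73).

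The remaining relations showed where members parted. Tlr1 had r = -0.66 with the neutrophil sum (permutation p = 0.0187, adjusted p = 0.0746), opposite in sign to Cd14. Tlr13 had r = 0.68 with the macrophage sum (permutation p = 0.0135, adjusted p = 0.0673). Tlr3 and Tlr2 had r = -0.14 and r = 0.18 with the macrophage sum, with permutation p-values of 0.657 and 0.578.

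Between members, levels on the log2(TPM + 1) scale moved together most for Tlr8 and Tlr9 (Pearson r = 0.83 over 12 tumours), Tlr2 and Tlr4 (0.81), Tlr1 and Tlr13 (0.80) and Tlr8 and Tlr13 (0.80). Tlr1 and Tlr2, whose products form a receptor together, had r = 0.25, and Tlr4 and Cd14 had r = 0.38. The lowest value was that of Tlr3 and Cd14, at -0.62. These are descriptions over tumours that share library composition, and no test was made.

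One property of the libraries moved with several receptors. For it, the log2(TPM + 1) of each gene was centred over the libraries. The median of 2784 genes with an effective length over 4000 bases was taken, minus that of 2562 genes under 1000 bases. This difference ranged from -0.24 in ctrl tumour 1 to 0.22 in ctrl tumour 3. Tlr4 had r = 0.78 with this difference (permutation p = 0.000890, adjusted p = 0.00890 over the 10 members) and rho = 0.78 (adjusted permutation p = 0.0236). Tlr13 (r = 0.75, rho = 0.76), Tlr8 (r = 0.74, rho = 0.71) and Tlr9 (r = 0.71, rho = 0.75) each had an adjusted permutation p of 0.0206 by r, and Tlr2 (r = 0.67, rho = 0.69) one of 0.0331.

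Without ctrl tumours 1 and 3, the farthest from the median, r was 0.72 for Tlr4, 0.65 for Tlr13, 0.72 for Tlr8 and 0.42 for Tlr2, none of which passed, and 0.87 for Tlr9 (adjusted permutation p = 0.00560). Within the 8 libraries of the larger set r was 0.78, 0.69, 0.81, 0.63 and 0.62 for Tlr4, Tlr13, Tlr8, Tlr2 and Tlr9, and none passed. Cd14 had r = 0.12. Tlr1 had r = 0.60 with the difference over the 12 tumours (permutation p = 0.0411, adjusted permutation p = 0.0668). Its r was 0.66 without ctrl tumours 1 and 3 and 0.55 within the larger set, and neither passed. The miR-183-5p tumours lay at 0.02, -0.08 and 0.01. With this difference as a covariate, chosen after seeing the data, Tlr1 in miR-183-5p versus miR-142-5p had a log2 fold change of -0.78 (DESeq2, adjusted p = 0.0349), and against ctrl of -0.57 (adjusted p = 0.780). Over all genes, 67 passed with the covariate in the former comparison, against 8 without it.

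**Figure D5:**
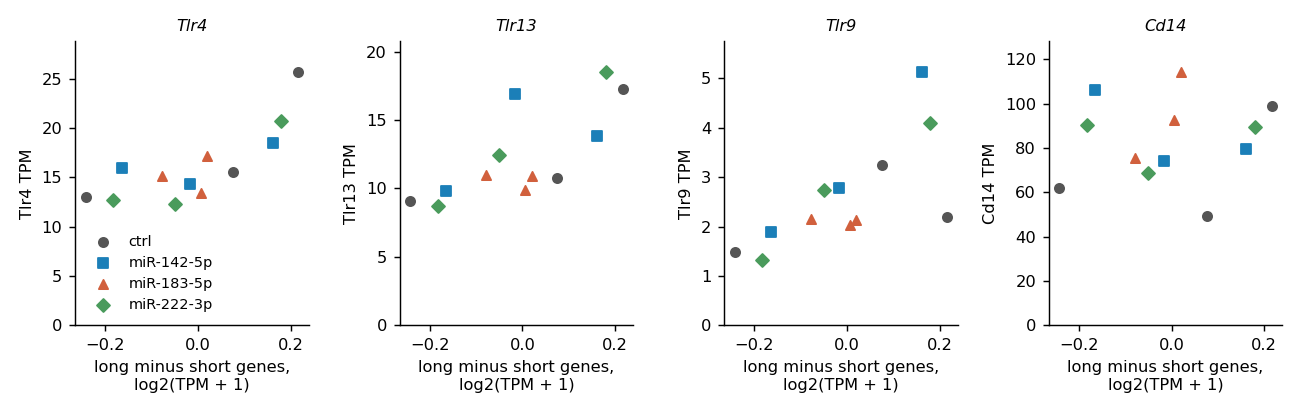
Levels of Tlr4, Tlr13, Tlr9 and Cd14 in TPM against the difference in median centred log2(TPM + 1) between long and short genes, with 1 point per tumour. Tlr4 (r = 0.78), Tlr13 (r = 0.75) and Tlr9 (r = 0.71) rise with it, whereas Cd14 (r = 0.12) does not.

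The genes with the most similar pattern over the 12 tumours were taken as the 3 with the highest Pearson r of log2(TPM + 1) per member, as a description. For Tlr1 these were Rbak (r = 0.96), Hpse (0.95) and Atp8a1 (0.95), and for Tlr2 they were Osbpl3 (0.96), Frmd6 (0.93) and Pyroxd1 (0.91). For Tlr4 they were Ccdc93 (0.97), Fnip1 (0.96) and Jmjd1c (0.96), and for Tlr13 Vps41 (0.97), Cdc14b (0.97) and Tcaf1 (0.97). The nearest gene was Herc6 (0.98) for Tlr3, Clk1 (0.93) for Tlr7, Madd (0.95) for Tlr8, Pggt1b (0.95) for Tlr9, Traf3ip1 (0.91) for Myd88 and Srgn (0.90) for Cd14.

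Of 53 further genes of Toll-like receptor signalling, 50 passed the count filter, and the adaptor Sarm1 and the targets Il12b and Ifnb1 did not. None passed the adjusted threshold in any of the 6 comparisons, by DESeq2 or by edgeR. At an unadjusted p-value under 0.05 there were 7 such genes of 50 in miR-183-5p against ctrl and 0 in either other group. There were 11 for miR-183-5p versus miR-142-5p, 4 for miR-183-5p versus miR-222-3p and 1 for miR-142-5p versus miR-222-3p. The matching shares of all genes were 3.21% for miR-183-5p, 3.58% for miR-142-5p and 2.31% for miR-222-3p, each against ctrl. Between the miRNA groups, in the order above, these shares were 7.94%, 3.25% and 3.62%. In miR-183-5p against ctrl 5 of the 7 were higher and 2 lower, where 1.61% and 1.59% of all genes were. Against miR-142-5p 7 of the 11 were higher and 4 lower, beside 3.09% and 4.85% of all genes. Without miR-142-5p tumour 1, 8 of these genes passed the adjusted threshold against miR-142-5p (DESeq2), where 416 of all genes passed against 8 in the fit of all tumours, and in fits that each left out 1 of the other tumours between 0 and 2 did.

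At an unadjusted p-value under 0.05, the 5 higher genes against ctrl were 2 ligands and 3 targets, and the 7 against miR-142-5p were 2 ligands, 3 targets and 2 inhibitors. Among endogenous ligands, whose proteins are released by cells and matrix and sensed by the receptors, 5 of 5 had a positive log2 fold change in miR-183-5p against ctrl. Their median was 0.68, where the median of all genes was -0.01 and 47.5% of all genes were positive. S100a8 and S100a9, the pair in this class with unadjusted p-values under 0.05, are also in the neutrophil list. Among targets 8 of 10 were positive, with a median of 0.32, and 8 of 10 were in miR-222-3p against ctrl as well, with a median of 0.07. Fibroblast markers (Col1a1, Col1a2, Dcn and Pdgfra) summed to 563 to 749 TPM in miR-183-5p and to 261 to 559 TPM in ctrl. The groups did not overlap, the nearest sums being 562.8 and 559.2 TPM, and the miR-222-3p tumours spanned 238 to 904 TPM. Col1a1 and Col1a2, with means of 208 and 228 TPM over the 12 tumours, made up most of the sum. In normalised counts ctrl tumour 3 was above miR-183-5p tumour 1 for Pdgfra (2121 against 1627). It was below it for Dcn (448 against 548), Col1a1 and Col1a2. Among the inhibitors, which end or dampen signalling, 4 of 5 were positive in miR-183-5p against ctrl (median 0.19) and 5 of 5 against miR-142-5p (median 0.22). Of all genes, 49.6% were positive in the latter comparison. The 2 with the low p-values against miR-142-5p were Nfkbia (0.47) and Tnfaip3 (0.54), both feedback inhibitors of NF-κB.

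Il6, an inflammatory cytokine gene, stood at 7.49, 5.53 and 2.58 TPM in the miR-183-5p tumours and at 2.04, 2.51 and 1.99 TPM in ctrl. The groups did not overlap, as for 3.44% of all genes in this direction, and the log2 fold change of Il6 was 1.27 (0.37 to 2.17, DESeq2 adjusted p = 1.0). The nearest tumours, at 2.58 and 2.51 TPM, were close, and Il6 rested on only 32 to 150 reads per library. Cxcl2, a chemokine gene that draws neutrophils, stood at 43.8, 15.9 and 34.1 TPM against 10.5, 12.7 and 20.8 TPM, which overlapped, with a log2 fold change of 1.13 (0.27 to 1.98, DESeq2 adjusted p = 1.0). Against miR-142-5p (20.4, 8.68 and 10.2 TPM) it was 1.23 (0.38 to 2.09, DESeq2 adjusted p = 0.285), and against miR-222-3p 1.05 (0.20 to 1.91).

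Cd180, which encodes a receptor-like inhibitor found on B cells and myeloid cells, had the lowest value against miR-142-5p, at -1.16 (-1.87 to -0.46, DESeq2 adjusted p = 0.151). It stood at 4.15, 4.38 and 4.59 TPM in the miR-183-5p tumours and at 6.02, 5.74 and 18.7 TPM in the miR-142-5p tumours, the last being the tumour with B cell markers. Without that tumour the log2 fold change was -0.47, whereas it was -1.40 (DESeq2 adjusted p = 0.0125) without miR-142-5p tumour 1 and -1.44 (0.0268) without miR-142-5p tumour 2. In the other comparisons the 2 largest differences were those of Cxcl10 (-0.58) and Cd180 (0.50) for miR-142-5p against ctrl, and of Bgn (0.71) and Vcan (0.63) for miR-222-3p against ctrl, all with unadjusted p-values of 0.0741 or more. Without miR-142-5p tumour 3 the value of Cd180 against ctrl was -0.20.

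Of the 14 kinases and ligases between receptor and target, 1 had a positive log2 fold change in miR-183-5p against ctrl, where 47.5% of all genes did. The median was -0.09. Against the same ctrl tumours 4 of 14 were positive in miR-142-5p and 3 of 14 in miR-222-3p. None had an unadjusted p-value under 0.05 in any comparison. The 2 lower genes against ctrl at that threshold were the adaptor gene Ticam2, at -0.49 (SE 0.23), and Unc93b1, at -0.37 (SE 0.18). UNC93B1 carries the endosomal receptors to their compartment, and its gene stood at 92.0, 88.5 and 63.2 TPM in the miR-183-5p tumours and at 107, 100.5 and 112 TPM in ctrl. Against miR-142-5p the 4 lower genes were the accessory genes Cd180, Ly86 and Unc93b1 and the transcription factor gene Irf5. Irf5 stood at 40.3, 36.2 and 41.4 TPM in the miR-183-5p tumours and at 53.2, 44.8 and 55.4 TPM in the miR-142-5p tumours, with a log2 fold change of -0.37 (SE 0.11, DESeq2 adjusted p = 0.149).

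Counted by overlap with ctrl, 4 of the 50 genes were lower in every miR-183-5p tumour (Cd180, Ly86, Unc93b1 and Irf5), where 4.73% of all genes were. The 3 that were higher in every miR-183-5p tumour were Ly96, Bgn and Il6, beside 3.44% of all genes. Ly96 encodes the partner of TLR4 that binds lipopolysaccharide, and it stood at 26.2, 20.7 and 21.1 TPM against 20.05, 17.2 and 17.7 TPM in ctrl. Against the same ctrl tumours, Ly96 was also higher without overlap in miR-142-5p, where Irak2 was lower without overlap. None of the 50 genes was without overlap in miR-222-3p. Of all genes, 5.13% and 5.5% differed so in either direction in these 2 groups. Ticam2, Unc93b1, Irf5, Ly86, Ly96, Irak2, Nfkbia and Tnfaip3 were named after their values were seen.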

How the data were processed

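Polyadenylated RNA of 12 tumours was sequenced with a strand-specific kit, and groups were taken from the sample labels. The authors mapped reads with Salmon to Ensembl transcripts (GRCm38 per the labels), and their deposited tables hold for each of 118783 transcripts an estimated count of reads, a TPM and an effective length. The release named in the methods and that in the tables differ. Transcripts were matched to GENCODE M21, for 116710 of them (98.3%), and unmatched ones held 0.633% to 0.671% of reads. TPM and rounded estimated counts were summed per gene as deposited, with effective length as an offset.

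Groups were compared by DESeq2 1.42.0 (R 4.3.3, Wald test, unshrunken log2 fold change, 12 libraries in 1 fit, group as the only factor), with Benjamini-Hochberg adjustment over 15438 genes and a threshold of 0.05. Intervals are the estimate ± the normal quantile times the SE. The filter, 10 reads or more in 3 libraries or more, kept 15485 genes, some of which received no adjusted p. Alternatives used edgeR 4.0.16 and limma 3.58.1 on log2(TPM + 1). Correlations used 100000 permutations (two-sided), enumerated exactly within the 8 libraries. Transcripts were aligned by BLAST 2.17.0 with at least 100 bases and 90% identity. Pairs of libraries within groups differed by chi-square per degree of freedom of 13.6 to 59.0, so none was a copy. The fit was tested on simulated data.

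Members and gene lists were chosen with earlier results of these data known. Pathway genes were named when called, or as the 2 largest differences per comparison with a mean normalised count of 50 or more, while for each member the 3 nearest patterns (for some the first alone) are given. A result that needs an item withheld for evaluation is not reported here.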

Additional observations from a re-analysis of the deposited data

How the results depend on the processing

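No member passed the adjusted threshold under edgeR, TMM factors, no count filter, at least 50 reads in every library, no length offset, limma or the replicate block. The exception was Tlr1 in miR-183-5p versus miR-142-5p, which made the count of members called 1 with only these 2 groups compared, 1 with the long against short gene level as a covariate (chosen after seeing the data) and between 0 and 1 when each tumour was left out in turn, the 1 being without miR-142-5p tumour 1. Over all genes the calls in these 3 fits were 68, 67 and 416, against 8. In the same comparison the count of further pathway genes called was 1 with the replicate block (Ptgs2), 2 with only the 2 groups compared (S100a8 and S100a9) and between 0 and 8 when each tumour was left out. The block changed no other call. The replicate numbers were not found to pair the tumours, since the median correlation of residuals was -0.09 for the same number and 0.03 for different numbers. Of the 20 marker relations 0 passed without the 2 farthest tumours and 0 within the larger library set, against 3. The causes were not tested.

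Differences near 0 changed sign, none of them called under any setting. Tlr2 in miR-183-5p against ctrl was -0.0015 with at least 50 reads, -0.0008 without the length offset, -0.0018 with the replicate block and -0.0039 in limma. Without the offset Tlr8 was -0.10 there and Tlr7 in miR-222-3p against ctrl 0.038. With the covariate Tlr9 in miR-183-5p against ctrl was 0.0069 and Tlr2 in miR-222-3p against ctrl 0.020. In limma the latter was 0.015, and Tlr2 in miR-183-5p against miR-222-3p was -0.019. Without the 2 farthest tumours r with the macrophage sum was 0.0060 for Tlr3 and 0.0045 for Cd14, and with the neutrophil sum -0.013 for Tlr4. Within the larger set r with the macrophage sum was -0.19 for Tlr2, -0.051 for Tlr4, -0.060 for Tlr8 and -0.14 for Tlr9, and with the neutrophil sum 0.27 for Tlr7.

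With each tumour left out in turn, 34 log2 fold changes took both signs. In miR-142-5p against ctrl they ranged from -0.25 to 0.089 (Tlr2), -0.26 to 0.16 (Tlr4), -0.095 to 0.30 (Tlr7), -0.051 to 0.41 (Tlr13) and -0.20 to 0.77 (Cd180). In miR-183-5p against ctrl they ranged from -0.13 to 0.24 (Tlr2), -0.29 to 0.071 (Tlr3), -0.35 to 0.076 (Tlr4), -0.37 to 0.13 (Tlr7), -0.15 to 0.24 (Tlr8), -0.29 to 0.21 (Tlr9) and -0.31 to 0.078 (Tlr13). In miR-222-3p against ctrl they ranged from -0.33 to 0.071 (Tlr1), -0.12 to 0.22 (Tlr2), -0.48 to 0.037 (Tlr4), -0.31 to 0.15 (Tlr7), -0.14 to 0.53 (Tlr9) and -0.18 to 0.35 (Tlr13). In miR-183-5p versus miR-142-5p they ranged from -0.12 to 0.024 (Myd88) and -0.031 to 0.35 (Cd14). In miR-183-5p against miR-222-3p they ranged from -0.12 to 0.12 (Tlr2), -0.002 to 0.36 (Tlr3), -0.083 to 0.27 (Tlr4), -0.27 to 0.19 (Tlr7), -0.54 to 0.015 (Tlr8), -0.62 to 0.048 (Tlr9) and -0.13 to 0.011 (Myd88). In miR-142-5p against miR-222-3p they ranged from -0.21 to 0.15 (Tlr3), -0.0002 to 0.35 (Tlr4), -0.18 to 0.37 (Tlr8), -0.13 to 0.64 (Tlr9), -0.14 to 0.33 (Tlr13), -0.072 to 0.024 (Myd88) and -0.14 to 0.21 (Cd14). With at least 50 reads in every library Il6 was left out of the fit. Among the members depth was lowest for Tlr9, with as few as 76 reads in a library.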
